A study of Mus musculus with 2 samples.

Results

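Collagens are trimeric matrix proteins in which chains rich in glycine wind into a triple helix. Fibrillar collagens bundle into the fibers of connective tissue, type IV forms the sheet of every basement membrane, type VIII assembles into short-chain networks, and further types coat fibrils, form beaded filaments or stay in the plasma membrane. In the brain, collagen transcripts come mainly from the meninges, blood vessels and the stroma of the choroid plexus, and the pial basement membrane that they help build anchors the end feet of radial and Bergmann glia. The 44 collagen genes described here are all rows of the count table whose symbol follows the pattern Col, number, a, number. They cover 27 collagen types among 22423 listed genes, and 43 of the 44 had at least 10 reads over both libraries.

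Cerebella were taken from 3-day-old C57BL/6 mice (P3), 1 group with floxed alleles only (Prdm16fl/fl, the control) and 1 labelled Prdm16cKO, in which Prdm16 was knocked out conditionally (cKO). The labels give neither the Cre driver, the deleted exons nor the sex. The design speaks of triplicates, but the table has 1 count column per genotype, so no difference below has a replicate check and no p-value was computed. Pooling of animals within a column is not described. Reads over genes totalled 18600299 for the control and 17501279 for the cKO.

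Reads of Prdm16, the targeted transcription factor gene, numbered 315 in the control and 118 in the cKO, with a log2 ratio (cKO over control, as throughout) of -1.30 (95% counting interval -1.62 to -0.99). Both libraries held reads of the cerebellar genes Zic1 (16884 and 15939), Cbln1 (9553 and 10656), Atoh1 (560 and 789) and Pcp2 (367 and 552). They differed in 2 further ways. Choroid plexus epithelial markers summed to 6158 CPM (reads scaled to a common library size) in the control and 203 in the cKO. Ttr alone gave 5269 and 14.8 of these CPM. Xist had 14779 and 21 reads while Y-linked Eif2s3y had 0 and 1195. Genotype, choroid plexus content and this sex pattern cannot be told apart over 1 pair of libraries.

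Collagen reads as a whole took nearly the same share of both libraries, while a few chains were much lower in the cKO. All 44 together had 57938 and 53471 reads in the control and the cKO, a share of 0.311% (0.309 to 0.314) and 0.306% (0.303 to 0.308) of all gene reads. The intervals of these shares lay slightly apart. On the TMM scale (library totals corrected by edgeR's trimmed mean) the sums were 3082 and 3087 CPM, a log2 ratio of 0.00 (-0.01 to 0.02). A gene is called lower or higher here if its scaled levels differed 2-fold or more and the exact binomial 95% interval of their log2 ratio left out 0. By this rule 5 of the 43 genes were lower, Col8a1, Col8a2, Col4a3, Col4a4 and Col24a1, against 2.20% of all 18787 genes with at least 10 reads. None of the 43 was higher, against 1.21% of all genes. The same 5 were lower with 99% intervals (1.56% of all genes), at a minimum of 50 reads (1.17%) and with no minimum (1.99%), and 7 were lower at 1.5-fold (3.92%). None was higher under these 4 settings, against 0.633%, 0.366%, 1.19% and 2.26% of all genes.

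The other 38 collagen genes stayed within 2-fold. Of the 23 with at least 1000 reads, 0 were called. Calls were rare at that depth in the whole table, 18 on the lower side and 1 on the higher side among 7724. The 0 of 23 therefore shows little. Of the same 23 collagen genes, 19 lay within 0.25 of a log2 ratio of 0, against 86.4% of all genes at that depth. Intervals of the 23 lay below 0 for 6 and above 0 for 9, against 21.1% and 28.9%. The median log2 ratio was -0.01 over the 43 collagen genes and 0.01 over all genes. Over all depths, counting intervals lay below 0 for 15 of the 43 and above 0 for 10, where 15.5% and 17.0% of all genes did so. All intervals hold counting error alone, and duplicates made by PCR can make them too narrow.

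**Figure D1:**
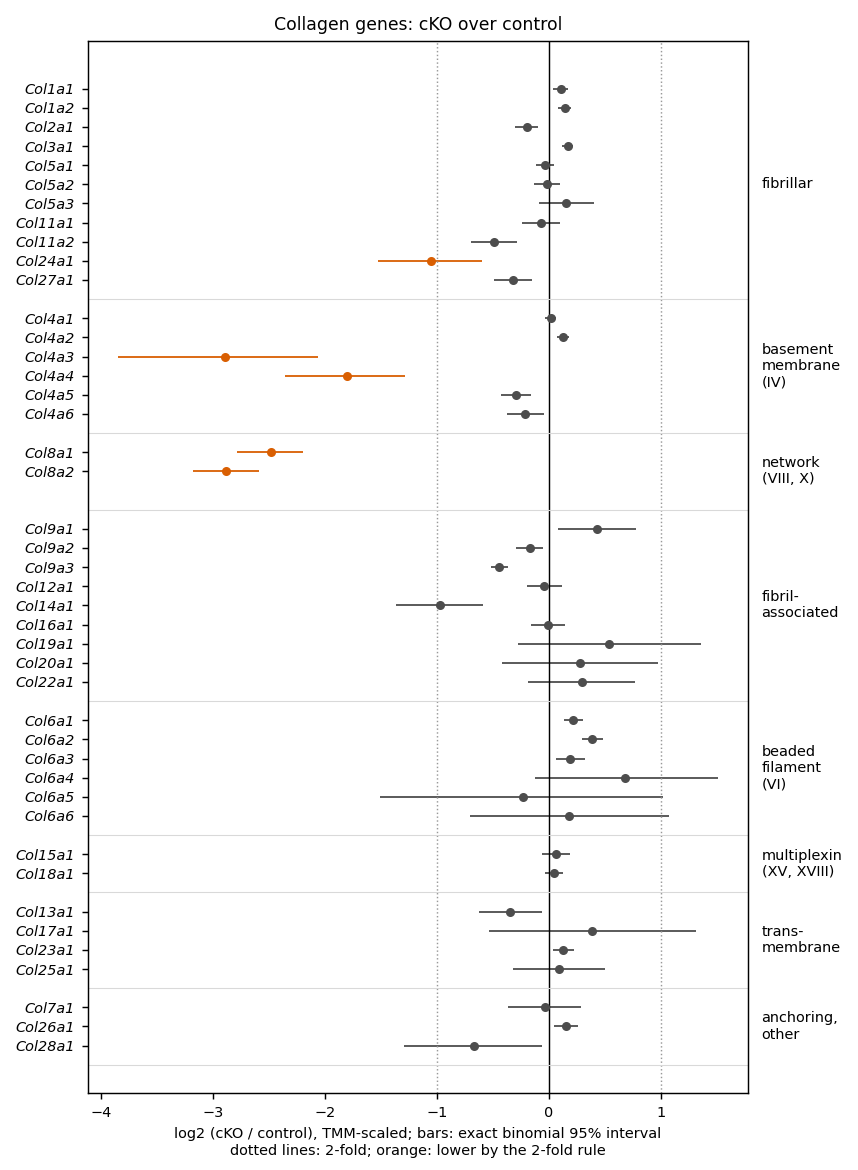
Log2 ratio of the cKO over the control library for the 43 collagen genes with at least 10 reads, grouped by class, with exact binomial 95% counting intervals (1 library per genotype). The 5 orange genes, Col8a1, Col8a2, Col4a3, Col4a4 and Col24a1, lie beyond the dotted 2-fold line on the lower side, and no gene lies beyond it on the higher side with an interval above 0.

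The 4 lowest genes form pairs of partner chains, and their start regions are shown because the members of each pair were low together. Col8a1 and Col8a2 lie on different chromosomes. The bases before their RefSeq starts (build GRCm38.p6, Col8a1 at chr16:57754738-57754987 on the minus strand, Col8a2 at chr4:126286544-126286792 on the plus strand) are printed 5′ to 3′ with each GGGCGG or its reverse complement, the GC box bound by SP-family factors, in capitals.
Col8a1: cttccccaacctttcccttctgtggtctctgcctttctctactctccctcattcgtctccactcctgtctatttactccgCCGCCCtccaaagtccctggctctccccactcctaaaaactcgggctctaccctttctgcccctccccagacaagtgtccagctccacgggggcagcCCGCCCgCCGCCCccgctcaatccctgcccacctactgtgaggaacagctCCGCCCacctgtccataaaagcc
Col8a2: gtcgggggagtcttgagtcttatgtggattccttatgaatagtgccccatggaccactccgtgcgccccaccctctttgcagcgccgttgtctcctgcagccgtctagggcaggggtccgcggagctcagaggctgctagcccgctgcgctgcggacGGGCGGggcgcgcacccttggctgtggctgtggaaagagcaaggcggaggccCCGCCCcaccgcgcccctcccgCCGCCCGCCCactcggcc
Col4a3 and Col4a4 stand head to head, with 71 bases between their GENCODE starts at chr1:82586850-82586920, printed on the plus strand, the strand of Col4a3.
Col4a3 and Col4a4: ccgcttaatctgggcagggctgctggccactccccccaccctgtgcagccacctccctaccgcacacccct
The GC box was found 4 times before Col8a1, and 4 times before Col8a2, where 2 of the matches overlap. It was not found in the 71 bases between Col4a3 and Col4a4. Neither CCAAT nor TATAAA, searched on both strands, was found in any of the 3 sequences. In the 250 bases before the start, 32.7% of 32851 RefSeq windows hold a GC box, 33.8% hold CCAAT and 12.4% hold TATAAA, and of the 35 collagen genes with a window 21, 13 and 5 do. The percentages count windows, while a collagen gene counts if any of its windows holds a match, so they are unlike measures. Such matches describe the letters and not binding.

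Type VIII collagen, a short-chain collagen known from Descemet's membrane of the eye and from the vessel wall, was the most reduced class. Col8a1, which encodes its first chain, had 693 control reads and 114 cKO reads, that is 36.9 CPM (34.2 to 39.7) and 6.58 CPM (5.43 to 7.91). The log2 ratio of -2.49 (-2.78 to -2.20) corresponds to a level 5.60-fold below the control. Col8a2, the second chain, had 872 and 109 reads, or 46.4 CPM (43.4 to 49.6) and 6.29 CPM (5.17 to 7.59). For Col8a2 the log2 ratio was -2.88 (-3.18 to -2.59), or 7.37-fold below the control, so both chains stood far below the control with CPM intervals well apart. Together with Col10a1, the hypertrophic cartilage collagen with 1 and 2 reads, this network-forming class held 2.70% (2.57 to 2.84) of the collagen reads of the control and 0.421% (0.368 to 0.479) of those of the cKO.

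In bulk tissue, fewer cells of a type and less RNA per cell cannot be told apart. Choroid plexus epithelial markers were called lower in the same library for 12 of 14 genes, against 2.20% of all genes with at least 10 reads. Their sum was 30.3-fold lower, against 6.41-fold for the network-forming collagens. Ttr alone held 99032 of the 115745 control reads of that list and 257 of its 3517 cKO reads. The control sum is thus mainly that of 1 gene, while Enpp2 (7625 and 2256 reads, 3.11-fold lower) holds most of the cKO sum. A sum without Ttr was not computed, so these folds give no order between the markers and the collagens. No marker of that list was at 0 reads in either library. Their part in the collagen differences was not tested.

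Type IV collagen was split by chain. Col4a1 and Col4a2, whose products form the network found in nearly all basement membranes, were the collagen genes with most transcript per length in both libraries. Col4a1 had 7465 and 6945 reads, 397 and 401 CPM, with a log2 ratio at 0.01 (-0.03 to 0.06). Col4a2 had 6017 and 6045 reads, 320.1 and 349 CPM, with a log2 ratio at 0.12 (0.07 to 0.18). Both common chains were therefore at close levels in the libraries.

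The rarer chains Col4a3 and Col4a4, which join Col4a5 in the network best known from the kidney glomerulus and affected in Alport syndrome, were lower. Col4a3 had 105 control reads and 13 cKO reads, that is 5.59 CPM (4.57 to 6.76) and 0.751 CPM (0.400 to 1.28), a log2 ratio of -2.90 (-3.85 to -2.06). Col4a4 had 148 and 39 reads, or 7.87 CPM (6.66 to 9.25) and 2.25 CPM (1.60 to 3.08), a log2 ratio of -1.81 (-2.35 to -1.29). These are folds of 7.44 and 3.50, and the CPM intervals of the libraries did not overlap for either gene. In GENCODE, exons of Col4a3 share 563 bases, 5.65% of their length, with the opposite-strand transcript C430014B12Rik, and the labels do not say whether counting used the strand.

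Col4a5 and Col4a6, a head-to-head pair on the X chromosome, were lower by much less. Col4a5 had 1049 and 790 reads, with a log2 ratio at -0.29 (-0.43 to -0.16), and Col4a6 had 689 and 548 reads, with a log2 ratio at -0.21 (-0.38 to -0.05). Neither reached 2-fold, and Xist separated the libraries as described above, a difference whose part in these X-linked genes was not tested. Over the 6 type IV genes the median log2 ratio was -0.25, but the summed reads stood at 0.01 (-0.02 to 0.05) because Col4a1 and Col4a2 hold most of them. The head-to-head arrangement was shared by all 3 type IV pairs, of which 1 was called lower.

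**Figure D2:**
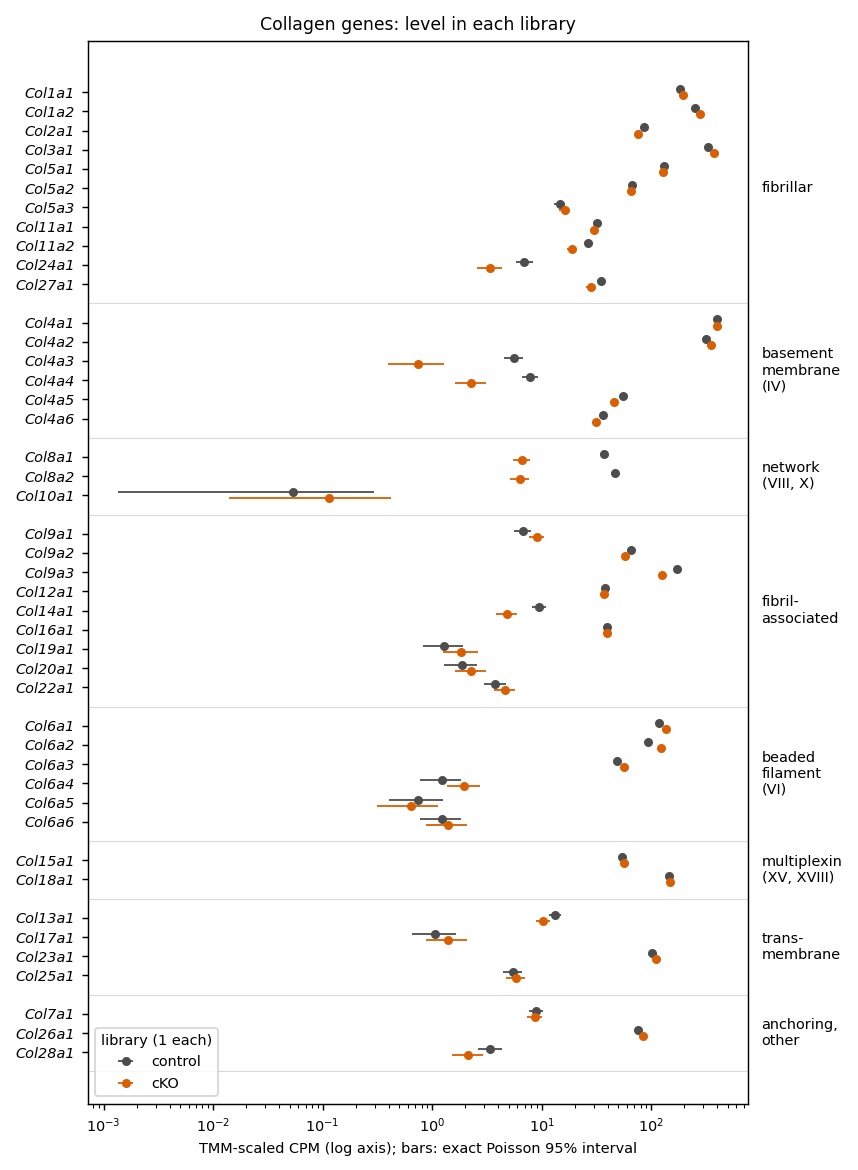
TMM-scaled CPM of all 44 collagen genes in the control and the cKO library on a log axis, with exact Poisson 95% intervals (1 library per genotype). Col4a1 lies highest at 397 and 401 CPM, while Col8a1 at 36.9 and 6.58 CPM and Col4a3 at 5.59 and 0.751 CPM show the wide gaps between the libraries.

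Fibrillar collagens, the rope-forming class of connective tissue, were the largest class, with 37.8% (37.4 to 38.2) of collagen reads in the control library and 39.3% (38.9 to 39.7) in the cKO. None of the 11 genes was called higher, and the class median was -0.04. Col3a1, which accompanies type I in elastic tissues and is a ligand of the receptor GPR56 (Adgrg1) at the mouse pial surface, was the fibrillar gene with most reads. It had 6262 and 6473 reads, 333 and 374 CPM, with a log2 ratio at 0.17 (0.12 to 0.22), the highest of the class. The type I chains stood close to it, Col1a1 with 3424 and 3393 reads at a log2 ratio of 0.10 (0.04 to 0.17) and Col1a2 with 4733 and 4812 reads at 0.14 (0.08 to 0.20). Type V chains, which start and thin type I fibrils, did not separate the libraries. Col5a1 had 2449 and 2201 reads (log2 -0.04, -0.12 to 0.05), Col5a2 had 1250 and 1137 (-0.02, -0.14 to 0.10) and Col5a3 had 275 and 282 (0.15, -0.09 to 0.40).

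Below the control, Col24a1, a fibrillar collagen of developing bone and other tissues, was the 1 called gene of the class. It had 131 control reads and 58 cKO reads, that is 6.97 CPM (5.83 to 8.27) and 3.35 CPM (2.54 to 4.33), a log2 ratio of -1.06 (-1.53 to -0.60) and a 2.08-fold lower level. Col11a2, a chain of the type XI collagen that nucleates cartilage fibrils, had 503 and 330 reads, with a log2 ratio at -0.49 (-0.69 to -0.29). Its partner Col11a1 had 598 and 525 reads, with a log2 ratio at -0.07 (-0.24 to 0.10). Col2a1, the main collagen of cartilage, had 1626 and 1304 reads (-0.20, -0.31 to -0.09), and Col27a1 had 660 and 487 (-0.32, -0.49 to -0.15). Cartilage markers outside the collagens summed to 62.0 and 61.8 CPM, and 0 of the 8 with at least 10 reads were called. Most of that sum was Sox9 (960 and 860 reads), which the astrocyte and Bergmann glia list also holds, while Acan had 12 and 7 reads, Comp 9 and 7, Cnmd 8 and 7 and Matn1 4 and 3, so the sum says little about cartilage. Bone markers summed to 52.0 and 39.3 CPM. Of 8, 1 was lower, Ibsp with 11 control reads and 1 cKO read, against 2.20% of all genes with at least 10 reads. Most of the bone sum was Spp1 (457 and 259 reads, -0.70, -0.93 to -0.48) and Alpl (427 and 338 reads, -0.22, -0.43 to -0.01). Ratios lay below 0 for 5 of the 8 and above 0 for 3.

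Fibril-associated collagens attach to the surface of larger fibrils and link them to their surroundings. As summed reads they were lower, with 339 CPM in the control and 284 in the cKO, with a log2 ratio at -0.26 (-0.31 to -0.20), although 0 of the 9 genes were called and the median was -0.01. Col9a3, a chain of the type IX collagen that coats type II fibrils, held most of this difference. It had 3246 and 2199 reads, 173 and 127 CPM, with a log2 ratio at -0.44 (-0.52 to -0.37). Col9a3 also ranked 3 among the 44 genes by control CPM per kilobase of exon, at 44.8, after Col4a1 at 53.2 and Col4a2 at 48.4. Its exons share 234 bases, 6.07% of their length, with the opposite-strand gene Tcfl5, which had 107 and 94 reads, with a log2 ratio at -0.07 (-0.48 to 0.34).

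The other type IX chains had ratios closer to 0 or above it. Col9a2 had 1233 and 1007 reads, with a log2 ratio at -0.17 (-0.30 to -0.05), and Col9a1 had 126 and 156 reads and a ratio on the other side of 0, at 0.43 (0.08 to 0.78). Col14a1, a fibril-associated collagen of skin and tendon, fell just short of the 2-fold rule. It had 179 and 84 reads, or 9.52 CPM (8.18 to 11.0) and 4.85 CPM (3.87 to 6.00), and a log2 ratio of -0.97 (-1.37 to -0.59). Scaled by library totals in place of TMM it was called lower, and the authors' deposited table marks it significant beside the same 5 genes. Col12a1 (715 and 639 reads, log2 -0.04) and Col16a1 (742 and 680 reads, -0.01) had intervals that included 0. So did the thinly covered Col19a1, Col20a1 and Col22a1, of which Col19a1 with 24 and 32 reads was the highest of the class at 0.53 (-0.28 to 1.36).

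Type VI collagen, whose beaded filaments link cells to the surrounding matrix, was the class that stood highest. All 3 main chains had intervals above 0, as did 28.9% of all genes with at least 1000 reads. Col6a1 had 2221 and 2379 reads, 118 and 137 CPM, with a log2 ratio at 0.22 (0.13 to 0.30). Col6a2 had 1753 and 2111 reads, 93.3 and 122 CPM, with a log2 ratio at 0.39 (0.29 to 0.48). Col6a3 had 926 and 973 reads, 49.3 and 56.2 CPM, with a log2 ratio at 0.19 (0.06 to 0.32). None reached 2-fold, and the 3 alternative chains Col6a4, Col6a5 and Col6a6 had 11 to 34 reads per library with intervals that included 0, from -0.23 (Col6a5) to 0.68 (Col6a4).

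Summed over the class, type VI stood at 264 CPM in the control and 319 in the cKO, with a log2 ratio at 0.28 (0.22 to 0.33), and its share of collagen reads was 8.56% (8.33 to 8.79) and 10.3% (10.1 to 10.6). Meningeal fibroblast markers moved the same way in the same library. Of 14, 0 were called, 10 had intervals above 0 and 1 below (17.0% and 15.5% of all genes with at least 10 reads, 28.9% and 21.1% with at least 1000), with a median of 0.34 and summed levels of 1284 and 1686 CPM. Of these markers, Dcn, Lum and Ogn are also on the list of fibril-binding matrix proteins, and Pdgfra is on that of the oligodendrocyte lineage. In the fibrillar class 3 intervals, those of Col1a1, Col1a2 and Col3a1, also lay above 0, and 4 lay below. The part of the meningeal markers in the type VI difference was not tested.

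Among the remaining classes no gene was called. The multiplexins Col18a1, the source of endostatin, and Col15a1, both of vascular and other basement membranes, were level between the libraries. Col18a1 had 2712 and 2574 reads (log2 0.04, -0.04 to 0.12) and Col15a1 had 1018 and 979 (0.06, -0.07 to 0.19). Of the transmembrane collagens Col23a1 was by far the most abundant, with 1903 and 1916 reads, with a log2 ratio at 0.13 (0.04 to 0.22). Col13a1, a collagen of the neuromuscular junction, had 248 and 180 reads and the lowest ratio of that class at -0.34 (-0.63 to -0.06), and Col17a1, of hemidesmosomes, had 20 and 24 reads and the highest at 0.38 (-0.54 to 1.31). Col25a1, a neuronal membrane collagen whose shed form is found in amyloid plaques, had 103 and 101 reads. Col26a1 had 1422 and 1455 reads (0.15, 0.04 to 0.26), Col7a1, of the anchoring fibrils below epithelia, had 167 and 150 (-0.04, -0.36 to 0.29), and Col28a1, known from peripheral nerve, had 64 and 37 (-0.67, -1.30 to -0.07).

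Chains that assemble into 1 protein can also be compared with each other, since a gene's length is the same in both libraries. Within type I, Col1a1 held 42.0% (40.9 to 43.1) of the reads in the control and 41.4% (40.3 to 42.4) in the cKO. Within type VIII, Col8a1 held 44.3% (41.8 to 46.8) and 51.1% (44.4 to 57.9), so both chains were low and the intervals of their shares overlapped. Col4a4 held 58.5% (52.2 to 64.6) of the reads of its pair with Col4a3 and 75.0% (61.1 to 86.0), which also overlapped at this depth. The shares were 6.84 points higher in the cKO for Col8a1 and 16.5 points higher for Col4a4. Overlap of separate intervals does not show that shares were equal, and no interval of the difference was computed. Intervals did not overlap for the pair Col4a1 and Col4a2, for Col6a2 among Col6a1 to Col6a3, for the 3 type IX chains and for the type XI pair Col11a1 and Col11a2. The partners of a pair show 1 difference between them. With 99% intervals this held for Col9a1 and Col9a3, and no such share was computed for genes outside the collagens.

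Col9a3 held 70.5% (69.1 to 71.8) of type IX reads in the control library and 65.4% (63.8 to 67.0) in the cKO, while Col9a1 held 2.74% (2.28 to 3.25) and 4.64% (3.95 to 5.41). Col11a1 held 54.3% (51.3 to 57.3) of the summed Col11a1 and Col11a2 reads in the control and 61.4% (58.0 to 64.7) in the cKO. Of the common type IV pair, Col4a1 held 55.4% (54.5 to 56.2) and 53.5% (52.6 to 54.3). Intervals within a library are not independent between partner chains, since their shares sum to the whole.

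**Figure D3:**
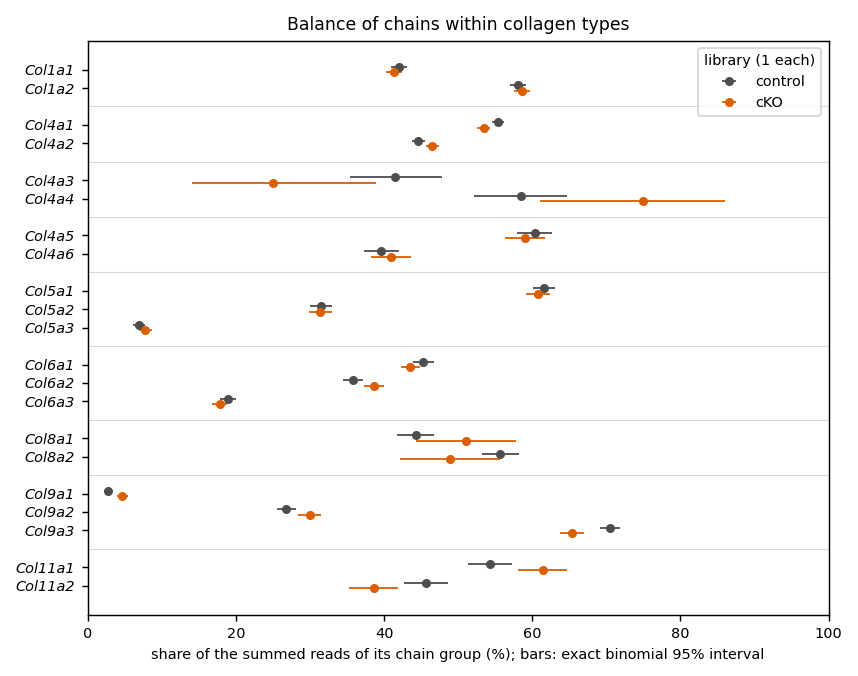
Share of each chain in the summed reads of its collagen type or type IV pair, in the control and the cKO library, with exact binomial 95% intervals (1 library per genotype). Type VI counts Col6a1 to Col6a3 only, and type XI counts Col11a1 and Col11a2 only. The intervals of types I and V overlap between the libraries, while Col9a3 moves from 70.5% to 65.4% and Col11a1 from 54.3% to 61.4%.

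Genes that make, cut, bind or degrade collagen were listed separately. Enzymes and chaperones of collagen modification, folding and secretion had 20 genes with at least 10 reads, of which 0 were called, with a median log2 ratio of -0.05. Intervals lay below 0 for 3 and above 0 for 2, against 15.5% and 17.0% of all genes with at least 10 reads. Of all genes at that depth, 2.20% were called lower and 1.21% higher, so 0 calls in a list of this size show little. Crtap (0.19, 0.02 to 0.36), of the prolyl 3-hydroxylase complex, and Plod2 (0.11, -0.05 to 0.26), a lysyl hydroxylase, were the highest, and Colgalt2 (-0.36, -0.84 to 0.12), a collagen galactosyltransferase, and P3h2 (-0.26, -1.18 to 0.64), a prolyl 3-hydroxylase, the lowest. The collagen chaperone Serpinh1 had 4354 and 4248 reads, with a log2 ratio at 0.08 (0.02 to 0.14).

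Procollagen processing and cross-linking held the 1 called gene of these lists. Over all genes with at least 10 reads, 2.20% were called lower and 1.21% higher. Pcolce2, an enhancer of C-propeptide removal, had 96 control reads and 33 cKO reads, with a log2 ratio at -1.42 (-2.04 to -0.84), while its homolog Pcolce had 742 and 745 reads, with a log2 ratio at 0.12 (-0.02 to 0.27). Tll2 (-0.88, -2.02 to 0.17), a metalloproteinase gene of the tolloid family, was next lowest of the 14 genes. Lox, the lysyl oxidase that starts cross-links, had 408 and 499 reads and the highest ratio at 0.41 (0.22 to 0.60), followed by the procollagen N-proteinase gene Adamts14 at 0.35 (0.11 to 0.58). The list median was 0.02, with 3 intervals on each side of 0, against 15.5% below and 17.0% above over all genes with at least 10 reads.

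Collagen receptors had 0 of 11 genes called, a median of -0.02, 1 interval below 0 and 3 above. Itga11 (0.47, 0.13 to 0.82), an integrin chain that binds fibrillar collagen, and Itga2 (0.43, -0.09 to 0.96) were the highest, and the inhibitory immune receptor Lair1 (-0.55, -0.96 to -0.15) and Itga10 (-0.21, -0.57 to 0.14) the lowest. Adgrg1, the type III collagen receptor of neural progenitors, had 5595 and 5279 reads, with a log2 ratio at 0.03 (-0.02 to 0.09). Collagen-degrading enzymes and their inhibitors had 0 of 12 called, a median of 0.08, 3 intervals below 0 and 3 above. Of all genes with at least 10 reads, 2.20% were called lower and 1.21% higher. Their intervals lay below 0 for 15.5% and above 0 for 17.0%. Mmp2 (-0.61, -0.82 to -0.40), a gelatinase, and Mmp9 (-0.40, -0.80 to 0.00) were the lowest, and Mmp8 (6 and 9 reads) and Timp1 (0.44, -0.07 to 0.95) the highest.

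Basement membrane partners had 0 of 18 genes called, with 7 intervals below 0 and 2 above, against 15.5% and 17.0% of all genes with at least 10 reads and 21.1% and 28.9% with at least 1000. Their summed reads stood at 2495 and 2321 CPM, a log2 ratio of -0.10 (-0.12 to -0.08), with a median of -0.00. The heparan sulfate proteoglycans Hspg2, which encodes perlecan and had 2758 and 1977 reads (-0.36, -0.45 to -0.28), and Agrn, which encodes agrin and had 6781 and 5209 reads (-0.26, -0.31 to -0.21), were the lowest. The laminin chains Lamb3 (0.58, -0.28 to 1.47) and Lama3 (0.37, 0.04 to 0.69) were the highest. Fibril-binding matrix proteins had 0 of 18 called, a median of -0.06, 4 intervals below 0 and 6 above. Over all genes with at least 10 reads, 2.20% were called lower and 1.21% higher. The small proteoglycans Fmod (0.59, 0.43 to 0.75) and Dcn (0.43, 0.34 to 0.52) were the highest, and fibrillin-1 (Fbn1, with 1027 and 559 reads, -0.76, -0.91 to -0.61) and Prelp (-0.66, -0.85 to -0.46) the lowest.

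**Figure D4:**
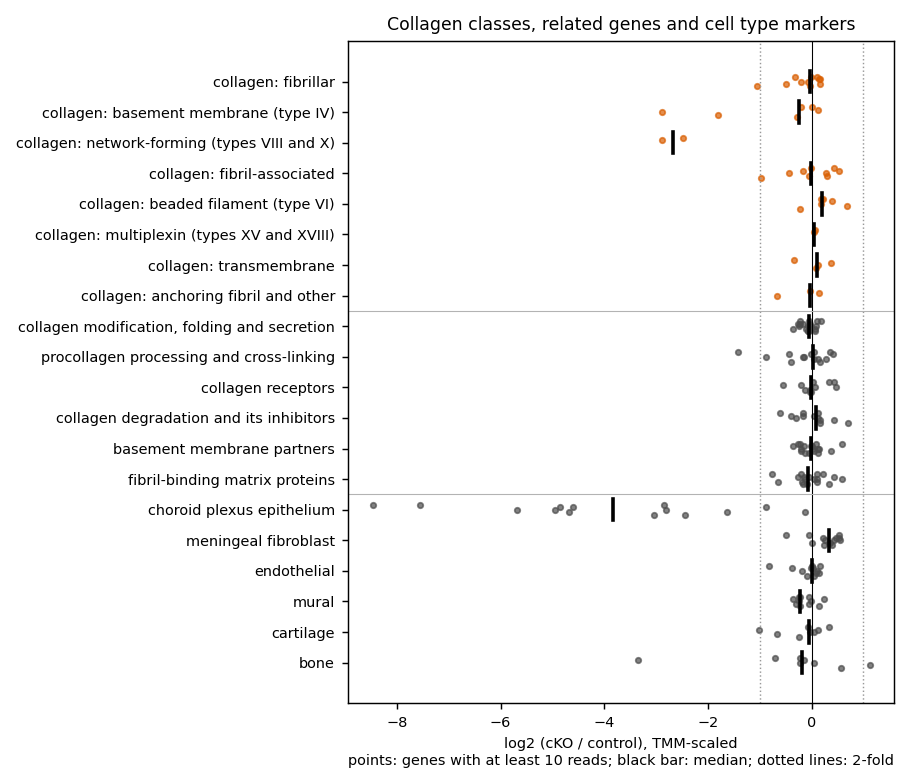
Log2 ratio of the cKO over the control library for genes with at least 10 reads in the collagen classes (orange), the related gene lists and the cell type marker lists (grey), with each median as a black bar. Of the collagen classes the network-forming one lies apart with a median of -2.68, on the same side as the choroid plexus markers with a median of -3.83, and the medians of the other collagen classes lie between -0.25 and 0.20.

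Markers of the cells that could supply collagen transcripts are given as whole lists. On the choroid plexus epithelium list 12 of 14 genes were called lower and 0 higher, against 2.20% and 1.21% of all genes with at least 10 reads. Its log2 ratios ran from Ttr (99032 and 257 reads, -8.47, -8.65 to -8.30) and Slc4a5 (-7.55, -9.43 to -6.19) up to Otx2 (-0.87, -1.03 to -0.72) and Prlr (-0.13, -1.04 to 0.76). The meningeal fibroblast list ran from Slc13a4 (-0.49, -0.65 to -0.33) and Pdgfra (-0.05, -0.13 to 0.03) to Ptgds (0.53, 0.49 to 0.56) and Crabp2 (0.56, 0.26 to 0.86). Endothelial markers had 0 of 12 called, with 3 intervals below 0 and 2 above, a median of 0.01 and summed levels of 606 and 589 CPM. They lay between Slco1c1 (-0.83, -0.98 to -0.68) or Emcn (-0.37, -0.63 to -0.11) and Slc2a1 (0.14, 0.04 to 0.25) or Tie1 (0.17, 0.02 to 0.31). Mural cell markers had 0 of 11 called, a median of -0.22 and summed levels of 528 and 511 CPM. Ratios lay below 0 for 9 of the 11, with 4 intervals below 0 and 1 above. Mural values lay between Higd1b (-0.36, -0.91 to 0.18) or Kcnj8 (-0.30, -0.59 to -0.01) and Ndufa4l2 (0.15, -0.15 to 0.45) or Vtn (0.24, 0.15 to 0.34). Over all genes with at least 10 reads, 15.5% of intervals lay below 0 and 17.0% above.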

How the data were processed

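Total RNA from the cerebellum at postnatal day 3 was made into TruSeq libraries, per the labels' protocols, and the authors deposited 1 table with 1 column of raw read counts per genotype. The submitters' processing notes list TopHat2 2.0.12, Bowtie2 2.2.3, HTSeq 0.6.0 and build mm9, without roles. Per the file headers the authors also deposited normalized values, which behave as CPM, a fold ratio, its log2 and p-values with adjusted p-values. No label names the tool behind the p-values, and with 1 library per genotype they compare libraries, not genotypes. Columns of samples left unused numbered 0.

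Counts were scaled by TMM in edgeR 4.0.16 under R 4.3.3 (factors 1.01 and 0.990). DESeq2 1.42.0 gave alternative size factors, and intervals and plots were made with scipy 1.17.1, pandas 2.3.3, numpy 2.4.6 and matplotlib 3.10.9 in Python 3.11.15. CPM carry exact Poisson intervals, and ratios and shares exact binomial (Clopper-Pearson) 95% intervals. For a point estimate, a library with 0 reads was set to 3 counts. Exon lengths are unions from GENCODE M21 (GRCm38), not the authors' build. The members, classes and lists were chosen with earlier results of these data known. Full values were given for members that were called, had at least 1000 reads or were extreme in their class, and for the 2 highest and 2 lowest genes of each related list and of the choroid plexus, meningeal, endothelial and mural lists. Other genes were chosen after their values were seen. The remaining marker lists are given as counts and medians.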

Additional observations from a re-analysis of the deposited data

How the results depend on the processing

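Library totals, DESeq2 size factors and upper-quartile scaling moved a collagen log2 ratio by at most 0.03, and the same 15 intervals lay below 0 and the same 10 above under each. The count of lower genes was 6 with library totals (Col14a1 added), 7 at 1.5-fold (Col14a1 and Col28a1 added) and 5 with the other scalings, read minimums and 99% intervals, always including the 5 named, and 0 were higher under every setting. With 99% intervals 2 chain shares stood apart in place of 8. Of 251 recomputed values, 243 stayed within the counting interval of the value (for a median, of its middle gene) or, for a count, within 1.5 times of it. Another scaling shifts all log2 ratios by the same amount, at most 0.03. The single-gene values could therefore not leave their wider intervals, and their staying inside shows little. The summed log2 ratio of all collagen genes was -0.028 with library totals and -0.018 with DESeq2 size factors, and that of fibrillar genes 0.027 with library totals. The median of type IV genes was -0.10 with types XV and XVIII added, that of network-forming genes -2.49 without a read minimum and 0.18 with type VI added, where the 6 type VI genes outnumber type VIII, and that of type VI 0.30 at a minimum of 50 reads. No paired analysis was possible because each genotype has 1 library, and for the same reason no library could be left out. Depth limits the genes with few reads, such as Col6a5 or Col17a1, whose intervals allow a 2-fold difference.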

Other observations

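Several secreted or membrane proteins outside the collagen family carry collagen-like repeats, and a list of 39 of their genes was drawn up after the collagen values had been seen. The rule called 3 of the 30 with enough reads lower and 0 higher, against 2.20% and 1.21% of all genes, and the median log2 ratio was -0.12. The lower genes were Gldn, which encodes gliomedin, a protein of peripheral nodes of Ranvier (25 and 6 reads, -1.94, -3.52 to -0.62), the synaptic organizer gene C1ql3 (61 and 18 reads, -1.64, -2.49 to -0.86) and the ferritin receptor gene Scara5 (80 and 36 reads, -1.03, -1.64 to -0.45). C1ql1, the climbing fiber ligand that acts on Purkinje cells, had 465 and 531 reads, with a log2 ratio at 0.31 (0.13 to 0.49). The complement genes C1qa, C1qb and C1qc had ratios of 0.26, 0.11 and 0.15. C1qtnf2 was the highest of the list with 191 and 237 reads at 0.43 (0.15 to 0.71).

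Of the other marker lists, skeletal muscle had 1 of 8 genes higher (Tnnt3, 24 and 49 reads) and a median of 0.03, microglia 1 of 8 higher (Aif1, 23 and 47 reads) and 0.08, and ependymal and ciliated cells 2 of 7 higher (Ccdc153 and Tmem212) and 0.30, against 1.21% of all genes. Intervals lay below 0 for 1 microglial gene and above 0 for 3, and for 1 and 4 of the ependymal and ciliated genes. Over all genes with at least 10 reads these shares were 15.5% and 17.0%. The genes below 0 were the microglial Cx3cr1 (396 and 245 reads, -0.57, -0.81 to -0.34) and the ciliary Cfap126 (163 and 88 reads, -0.77, -1.16 to -0.39). Astrocytes with Bergmann glia had 0 of 9 called and a median of -0.04, and the oligodendrocyte lineage 0 of 8 and -0.05. Cartilage markers had a median of -0.06 and bone markers -0.18. All 5 sex-linked genes separated the libraries, 4 higher and 1 lower in the cKO.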
